A study of Mus musculus with 6 samples.

Results

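Cxcl13, Adamts2, Rxfp3, Abca8a, Abca9, Unc13b and Arhgap20 are genes that the study lists as repressed by Bapx1 in the vertebral column. It also lists them as having a site bound by Bapx1 at most 100 kb from their transcription start site (TSS). These 7 of the 32 genes on that list were chosen by their embryo data, because the deposited embryo peak list held no Bapx1 summit within 100 kb of any of their annotated transcript starts. Col1a1, also on that list, had no embryo summit within 100 kb either, but is not among the 7 genes. Why the study's list and the deposited peaks differ for these genes was not tested. The whole annotation of mm9 held 22367 protein-coding genes. Each gene was examined over its mm9 gene body with 200 kb added on either side, and the windows of the neighbouring Abca8a and Abca9 overlapped and were merged for sums, which gave 6 windows and 3.05 Mb.

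The libraries came from chromatin immunoprecipitation followed by sequencing (ChIP-Seq). The Bapx1 vertebral column library was made from E12.5 CD1 embryos whose own Bapx1 gene carries an S-peptide tag, pulled down with anti S-Peptide antibody, and its control was made with the same antibody on E12.5 wildtype CD1 embryos without the tag. The study pooled the vertebral columns of many embryos for each of these libraries. In NIH3T3 cells, a mouse embryonic fibroblast line, V5-tagged Bapx1 was overexpressed and pulled down with an anti-V5 antibody. The labels of the control conflict. Its title calls it an input, while other fields describe a pulldown with the V5 antibody, in one place from cells that received an empty vector and in another from wild type cells. It is called V5 here, and whether it was an input or a pulldown was not tested. There was 1 library per condition, so no spread between embryos or cultures could be measured, and the 95% intervals below cover counting error only. The embryo libraries contributed 24853758 Bapx1 tags and 20702403 wildtype tags on chromosomes 1 to 19, X and Y, and the NIH3T3 libraries 8901095 Bapx1 tags and 12453788 V5 tags after repeated positions were reduced to 1 tag.

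Bapx1, listed in the annotation as Nkx3-2, is a homeodomain transcription factor of the NK family. It is expressed in the sclerotome, from which the vertebrae form, promotes the formation of cartilage there, and is known mainly as a repressor. Transcription factors can act on a gene from its promoter or from enhancers that lie far along the chromosome, and a nearby summit does not by itself assign a site to a gene. The genes here have unlike roles and lie on 5 chromosomes of mm9. Cxcl13 is a chemokine that attracts B cells, Adamts2 is a metalloprotease that removes the N-terminal propeptide of fibrillar procollagens, and Rxfp3 is the receptor of relaxin-3. Abca8a and Abca9 are membrane transporters of the ABC subfamily A and lie in a cluster with Abca5, Abca6 and Abca8b, and Unc13b primes vesicles for exocytosis.

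In mm9, Cxcl13 (chr5:96385945-96390086) and Rxfp3 (chr15:10963472-10967723) are short genes, of 4.14 and 4.25 kb. Adamts2 (chr11:50415586-50621075) and Unc13b (chr4:43071825-43277745) span 205 and 206 kb. Abca8a (chr11:109886948-109957292) and Abca9 (chr11:109962063-110029510) lie side by side and span 70.3 and 67.4 kb, and Arhgap20 (chr9:51573442-51661961) spans 88.5 kb. Rxfp3, Abca8a and Abca9 are transcribed from the minus strand and the other 4 genes from the plus strand.

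The sites that NIH3T3 cells showed in these windows are introduced first by their sequences. For each of the 6 windows, the bases from 50 bp before to 50 bp after the summit of the NIH3T3 peak with the smallest p are printed below, read 5′ to 3′ on the plus strand of mm9. Capitals mark the Bapx1 motif, searched as TGAGTG or TAAGTG on both strands, so that a match on the minus strand appears as CACTCA or CACTTA. In the intron of Abca8a, 3 copies of TAAGTG lay on the plus strand 13, 29 and 40 bp to the right of the summit, measured at base 3 of each match from its left, as are all distances between a match and a summit below. The strongest summits of Cxcl13, Adamts2 and Arhgap20 had no match in this stretch.
Abca8a and Abca9, intron of Abca8a (chr11:109897084-109897184): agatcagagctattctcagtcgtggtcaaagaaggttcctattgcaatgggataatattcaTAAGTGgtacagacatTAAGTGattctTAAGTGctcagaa
Cxcl13, coding exon of Cnot6l (chr5:96560206-96560306): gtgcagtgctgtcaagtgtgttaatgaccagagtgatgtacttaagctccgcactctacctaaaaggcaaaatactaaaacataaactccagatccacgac
Adamts2, intergenic upstream (chr11:50253483-50253583): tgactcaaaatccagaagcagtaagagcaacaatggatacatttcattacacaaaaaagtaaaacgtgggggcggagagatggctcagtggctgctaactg
Unc13b, intron of Unc13b (chr4:43093538-43093638): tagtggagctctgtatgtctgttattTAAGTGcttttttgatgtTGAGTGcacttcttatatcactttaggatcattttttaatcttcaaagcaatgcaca
Arhgap20, intron of Fdx1 (chr9:51769760-51769860): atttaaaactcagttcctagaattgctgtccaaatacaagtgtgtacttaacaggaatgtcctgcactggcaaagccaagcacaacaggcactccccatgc
Rxfp3, intron of Adamts12 (chr15:11120079-11120179): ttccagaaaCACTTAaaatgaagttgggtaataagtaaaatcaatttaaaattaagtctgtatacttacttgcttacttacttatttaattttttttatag

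An NIH3T3 summit lay within 100 kb of a transcript start for 7 of the 7 genes. This was also so for 79.1% of all protein-coding genes and for 76.2% of those without an embryo summit within 100 kb, so the count for the 7 genes stands near that background. The distance had a median of 20.9 kb over the 7 genes, 10.3 kb over the other 25 genes of the study's list, 34.5 kb over the protein-coding genes without an embryo summit within 100 kb and 30.7 kb over all protein-coding genes. Within 50 kb lay the nearest NIH3T3 summits of Rxfp3, Arhgap20, Abca8a and Unc13b, against 62.6% of all protein-coding genes.

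The nearest NIH3T3 summit of Rxfp3 lay 441 bp upstream of its start, on chromosome 15 at 10968164. The authors counted 17 tags in that peak, with a fold enrichment of 14.84 over the local background and an FDR (false discovery rate) of 0.18%. Recounted within the peak limits, it held 18 Bapx1 tags and 5 V5 tags in NIH3T3 cells, and 5 tags each from the Bapx1 and wildtype embryo libraries. Within 1 kb of the start on either side, Rxfp3 had 29 tags in the NIH3T3 Bapx1 library and 18 in V5, which is 2.25-fold once scaled to the totals (1.21 to 4.31). This stretch contains the whole NIH3T3 peak above, so its NIH3T3 ratio is not separate from the peak call. In the embryo this stretch had 21 Bapx1 and 15 wildtype tags, a ratio of 1.17 (0.573 to 2.43). For the other 6 genes, which had no NIH3T3 summit in this stretch, the interval of this ratio at the first start included 1 in both cell systems.

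The RefSeq promoters of the 7 genes (GRCm38.p6), from 250 bases before to 50 bases after the start, were each found once, without a mismatch, in mm9. Only that of Rxfp3 held the motif (1 of 7 promoters, 14.3%), whereas 23.9% of all 32851 RefSeq promoters held it. The promoter is printed 5′ to 3′ on the minus strand, the strand of the gene, with the motif in capitals. The end of the match nearer to the start lay 168 bases upstream of it in mm9, and the match was inside the NIH3T3 peak, 271 bp from its summit. The peak held a further TAAGTG on the strand of the gene 266 bases upstream, and neither match lay within 50 bp of the summit.
Rxfp3 promoter (chr15:10967674-10967973): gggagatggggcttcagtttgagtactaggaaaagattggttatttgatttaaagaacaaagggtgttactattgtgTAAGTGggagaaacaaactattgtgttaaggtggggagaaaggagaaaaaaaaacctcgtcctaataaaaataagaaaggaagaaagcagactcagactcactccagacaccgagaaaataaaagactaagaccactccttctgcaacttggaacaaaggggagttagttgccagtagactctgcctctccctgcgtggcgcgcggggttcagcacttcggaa

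The NIH3T3 peak with the smallest p and the most tags in all the windows was that of Abca8a at chr11:109896967-109897402, an intronic site. The authors counted 36 tags, with a fold enrichment of 27.54, a score of 241.79 for 10 times −log10 (p) and an FDR of 0.18%. In these limits the libraries held 36 Bapx1 and 7 V5 tags in NIH3T3 cells, and 9 Bapx1 and 5 wildtype tags in the embryo. The embryo ratio was 1.499 after scaling, with an interval of 0.451 to 5.70 that includes both 1 and several-fold enrichment. The summit lay 5.74 kb from a start of a shorter Abca8a transcript and 60.2 kb downstream of the first start of the gene. A weaker NIH3T3 summit lay beside it in Abca8a at 109897688, with 12 tags by the authors' count and 1 match of the motif within 50 bp.

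Abca9 had its nearest NIH3T3 summit in its own intron, at 109976490 and 52.9 kb downstream of a start, with 17 tags and a fold enrichment of 15.79 by the authors' values. There a TAAGTG on the plus strand lay 1 bp from the summit and another on the minus strand 23 bp from it. Upstream of Abca9, a pair of peaks of 19 tags each lay in introns of Abca6, with summits 2203 and 301 bp from an Abca6 start and folds of 28.79 and 27.09. A further 3 summits lay in introns of Abca5. The embryo libraries held between 2 and 9 Bapx1 tags in the 9 peaks of the merged window, and between 0 and 5 wildtype tags.

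For the remaining genes the nearest NIH3T3 summits were weaker or farther away. Arhgap20 had a summit in its intron 2.62 kb downstream of an internal start and 69.1 kb from its first start, with 9 tags by the authors' count and an FDR of 1.84%. Unc13b had its nearest at 20.9 kb upstream of an internal start, with 10 tags and an FDR of 1.76%, while its strongest, with 12 tags and a fold enrichment of 20.32, lay in an intron 21.8 kb downstream of the first start. Adamts2 had 5 summits inside its body, the nearest 63.1 kb downstream of the first start with 17 tags. In Cxcl13, a short gene, no summit lay in the body, and the nearest, with 13 tags, lay 87.8 kb upstream.

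In all, 38 NIH3T3 peaks lay in the 6 windows, 12.5 per Mb (exact Poisson 95% interval 8.81 to 17.1), against 8.74 per Mb over the genome. The genome length includes 3.63% of undetermined bases (N), and the windows hold none. This lowers the genome density beside that of the windows. The windows were also placed on genes, while the genome density covers all sequence, near genes or not. The density in like windows around other genes was not measured, so the higher value is not a result about these genes. By gene, the number of peaks was 11 for Adamts2, 8 for Abca9, 6 for Abca8a, 6 for Cxcl13, 5 for Rxfp3, 4 for Arhgap20 and 3 for Unc13b, with 5 peaks shared by both Abca windows. The density ran from 4.95 per Mb (1.02 to 14.5) for Unc13b to 18.2 per Mb (9.07 to 32.5) for Adamts2, and these intervals overlap. Of the 38 summits, 25 were intronic, 12 intergenic and 1 in a coding exon, that of Cnot6l beside Cxcl13. The bodies of the 7 genes held 11 of them, a count that was not set against the share of the windows that these bodies take up. The windows hold 41 further protein-coding genes with a start inside them, among them Zfp2 and Grm6 beside Adamts2, Adamts12 beside Rxfp3 and Vcp beside Unc13b, and the summits cannot be assigned to one of these genes from their position.

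By the authors' count the 38 peaks held between 9 and 36 tags, with a median of 12.5, and the median over all 23205 NIH3T3 peaks was 13. Their FDR ran from 0.07 to 5.21%, and 37 of the 38 were at or below 5%, as were 22670 of all 23205 NIH3T3 peaks. At a p of at most 1e-10, 7 peaks remained in the windows, and the density of NIH3T3 peaks over the genome was 1.89 per Mb. At this p, 4 of the 7 genes (Abca8a, Abca9, Unc13b and Cxcl13) kept a summit within 100 kb, against 33.7% of all protein-coding genes. Over whole windows the NIH3T3 libraries also differed, from a ratio of Bapx1 to V5 of 0.895 (0.853 to 0.939) for Adamts2 to 1.14 (1.08 to 1.21) for Abca8a. The part of this difference in the counts of peaks was not tested.

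**Figure D1:**
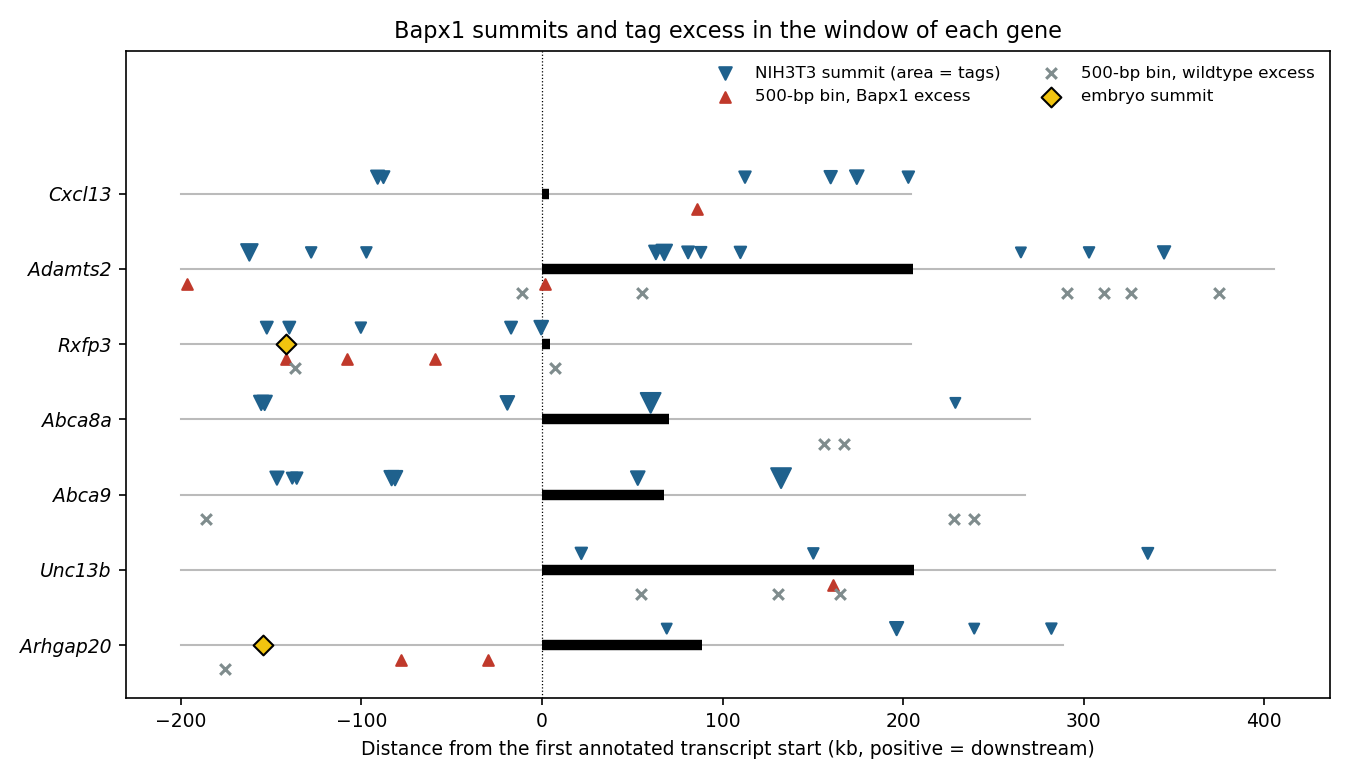
Position of Bapx1 summits and of 500-bp bins with tag excess around the 7 genes. The x axis gives the distance in kb from the first annotated start of each gene, black bars are gene bodies and grey lines the windows of 200 kb on either side, triangles pointing down are NIH3T3 summits with an area in proportion to their tags, and embryo summits (diamonds) appear for Rxfp3 and Arhgap20 only.

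In the embryo list the nearest summit to any annotated start lay 142 kb from Rxfp3, 155 kb from Arhgap20, 206 kb from Abca8a, 344 kb from Abca9, 594 kb from Adamts2, 1.496 Mb from Unc13b and 1.96 Mb from Cxcl13. From the first start, the same summits lay 271 kb away for Abca8a and 788 kb away for Adamts2. These distances follow from the choice of the genes and are given as a description. Among the other genes of the study's list, those nearest to the limit of 100 kb on its inner side were Cap1 at 99.2 kb, Mrgprf at 94.6 kb and Cldn11 at 92.5 kb. Of the other 25 genes, 24 had an embryo summit within 100 kb and 23 had an NIH3T3 summit. The exception was Col1a1, the gene of the type I collagen chain of bone, with its nearest embryo summit at 306 kb and an NIH3T3 summit at 0.629 kb.

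The windows of the 7 genes, which cover 3.05 of the 2654.9 Mb of the genome, held 2 of the 2815 embryo summits. The one nearest to Rxfp3 was strong, with 159 tags by the authors' count, a fold enrichment of 13.31, a score of 477.18 and an FDR of 25%. The peak spans chr15:11109311-11110013, within an intron of Adamts12, a secreted metalloprotease gene that lies next to Rxfp3. Within its limits there were 159 Bapx1 and 34 wildtype tags in the embryo, 3.90-fold after scaling (exact binomial 95% interval 2.68 to 5.82). In NIH3T3 cells the same limits held 2 Bapx1 and 8 V5 tags. A TGAGTG lay 7 bp to the left of its summit. The untagged wildtype library was also raised at this peak. A 500-bp bin in it held 22 wildtype tags, against a mean of 4.82 wildtype tags per bin of the Rxfp3 window.

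The summit nearest to Arhgap20 was far weaker, at 12 tags by the authors' count, with a fold enrichment of 7.82 and an FDR of 54.91%. It lay between genes at chr9:51418594-51418801. It held 12 Bapx1 and 3 wildtype tags in the embryo, and 1 and 0 tags in NIH3T3 cells, and no motif within 50 bp. The summit nearest to Abca8a and Abca9, at chr11:109685715-109685906 within an intron of 1700012B07Rik, fell just outside the window of Abca8a. It had 12 tags by the authors' count and an FDR of 60.65%, and a TGAGTG on the minus strand lay at its summit. The embryo FDR had a median of 61.1% over the whole list and a minimum of 11.8%.

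**Figure D2:**
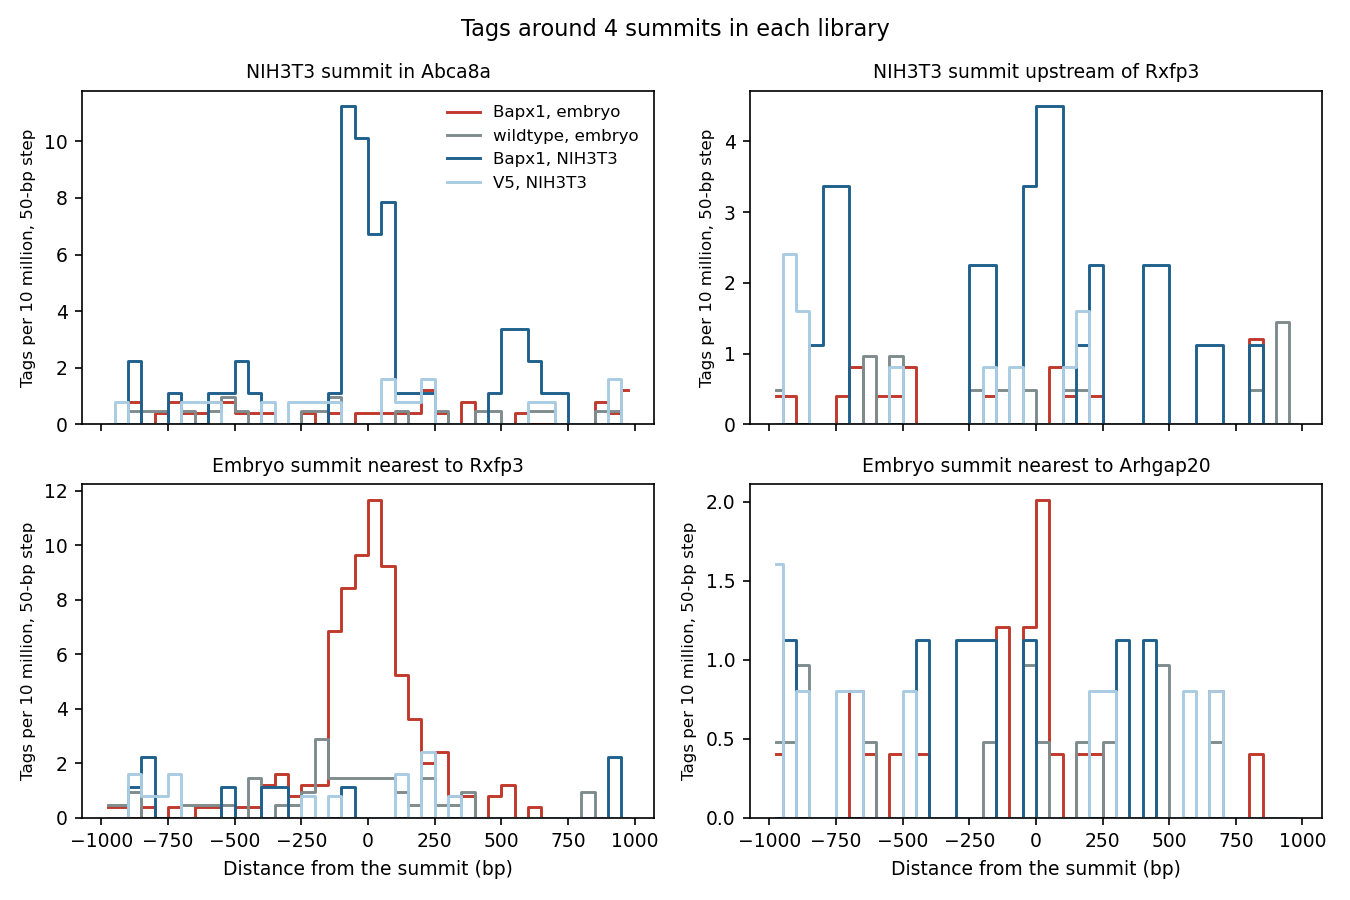
Tags per 10000000 tags of each library in steps of 50 bp around 4 summits, with the distance from the summit in bp along the plus strand on the x axis. At the embryo summit nearest to Rxfp3 (159 tags) the embryo Bapx1 line rises highest and the wildtype line, with 34 tags in the peak, rises less. At both NIH3T3 summits (36 and 17 tags) the NIH3T3 Bapx1 line stands highest, and the summit nearest to Arhgap20 rests on 12 tags.

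To look also below the peak threshold, all embryo tags, including those in called peaks, were counted in bins of 500 bp. A bin was called with a Bapx1 excess when the scaled Bapx1 tags numbered at least 12 (15 tags as sequenced). They also had to exceed the wildtype tags at least 3-fold after 1 was added to both. A wildtype excess required at least 12 wildtype tags as sequenced and the same fold in the other direction. Only the Bapx1 tags were scaled, so the minimum in sequenced tags was lower for wildtype. The counts of the Bapx1 and wildtype calls are therefore not like for like. Among the 6104 bins of the windows, 9 had a Bapx1 excess (0.147%, exact binomial 95% interval 0.0674 to 0.280%), against 0.0977% of all bins of the genome. An embryo peak covered 1 of these 9 bins and 1424 of the 5186 bins called over the genome. A wildtype excess was found in 15 bins (0.246%, 0.138 to 0.405%), against 0.138% over the genome. The bins of the genome, here and below, include stretches of undetermined bases, of which the windows hold none. In bins of 1000 bp with at least 24 scaled tags the order turned, with 2 bins of Bapx1 excess and 0 of wildtype excess in the windows and 0.0256 and 0.0093% over the genome. These bins come from the libraries that chose the genes, so their counts are a description.

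The 9 bins with a Bapx1 excess included the embryo peak near Rxfp3, where a single bin held 146 Bapx1 and 22 wildtype tags. The other 8 held between 15 and 22 Bapx1 tags and between 2 and 4 wildtype tags. By gene there were 3 for Rxfp3, 2 each for Adamts2 and Arhgap20, 1 each for Cxcl13 and Unc13b and none for Abca8a and Abca9. Bins with a wildtype excess numbered 6 for Adamts2, 3 for Unc13b, 3 for Abca9, of which 2 also lay in the window of Abca8a, 2 for Rxfp3, 1 for Arhgap20 and none for Cxcl13. A count of 0 in the 941 bins of Abca8a allows a share of up to 0.319%, and in the 935 bins of Abca9 one of up to 0.321%.

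For each gene the best bin is that with the smallest one-sided exact binomial p for Bapx1 over wildtype. That of Adamts2 lay 1.66 kb downstream of its first start, in an intron. This bin held 22 Bapx1 tags (9 on the plus and 13 on the minus strand) and 3 wildtype tags, 6.11-fold after scaling (1.84 to 31.9). It held no motif, and 3 Bapx1 and 4 V5 tags in NIH3T3 cells. For Cxcl13 the corresponding bin, 85.8 kb downstream of the start, held 17 Bapx1 and 3 wildtype tags. For Rxfp3 outside the embryo peak, it lay in Adamts12, 108 kb upstream, with 16 and 2 tags. For Arhgap20 the best bin, 202 kb downstream, held 13 and 1 tags and was too low to be called, as were those of Abca8a (10 and 0 tags), Abca9 (10 and 0) and Unc13b (9 and 0). The bins called for Arhgap20 (2) and Unc13b (1) are others, with more tags and a larger p. Each of these is the most extreme of 809 to 1212 bins, that of Rxfp3 only once the embryo peak is left out.

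**Figure D3:**
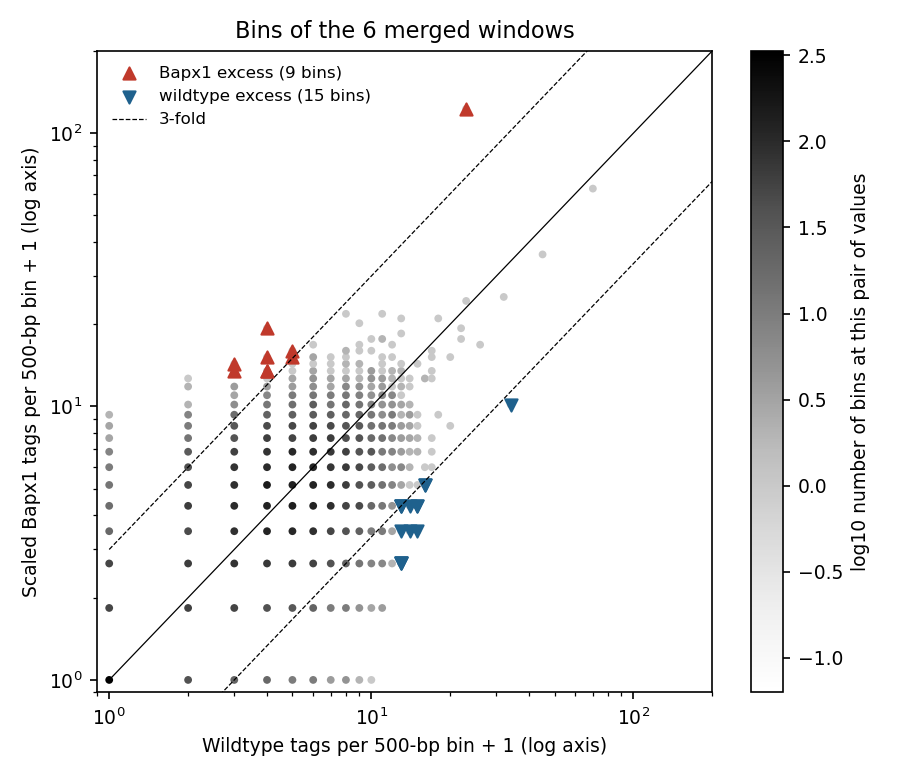
Scaled Bapx1 tags against wildtype tags per 500-bp bin of the 6 merged windows, with 1 added to both and log axes. Grey points are shaded by the number of bins, dashed lines mark a 3-fold ratio, and the bin of the embryo peak near Rxfp3, at 146 Bapx1 tags, stands alone above the other 8 called bins.

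Of the 9 bins with a Bapx1 excess 3 held the motif (33.3%), and of the 15 with a wildtype excess 3 did (20%), against 44.2% of all bins in the windows and 42.2% of all bins in the genome. The bases around the match nearest to the middle of the Bapx1 tags are printed for the 3 bins, since these are the places where tag excess and motif meet. They read 5′ to 3′ on the plus strand of mm9 with the motif in capitals. The bin of Arhgap20 lay 78.2 kb upstream of its first start and held 15 Bapx1 and 2 wildtype tags. The median position of minus-strand less that of plus-strand Bapx1 tags was 99 bp in the bin of the embryo peak. It was 72 bp in the bin of Arhgap20 and -98 bp in the other bin of Adamts12, so the strand order there was the reverse of that at the peak.
Rxfp3, embryo peak in an intron of Adamts12 (chr15:11109572-11109672): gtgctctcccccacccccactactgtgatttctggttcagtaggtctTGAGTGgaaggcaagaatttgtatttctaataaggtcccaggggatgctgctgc
Rxfp3, another intronic bin of Adamts12 (chr15:11075667-11075767): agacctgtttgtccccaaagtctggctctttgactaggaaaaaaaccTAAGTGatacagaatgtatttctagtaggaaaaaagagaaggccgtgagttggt
Arhgap20, intergenic bin upstream (chr9:51495044-51495144): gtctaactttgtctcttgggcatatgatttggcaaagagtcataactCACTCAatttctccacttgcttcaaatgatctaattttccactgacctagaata

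The embryo tags were then counted under the NIH3T3 peaks. The genes were chosen by the absence of a near embryo summit in the same embryo libraries, so these values are a description. None of the 38 peaks overlapped an embryo peak, and over the genome 180 of 23205 did. They held 179 Bapx1 and 149 wildtype tags in the embryo, a ratio of 1.001 (exact binomial 95% interval 0.801 to 1.252), whereas in NIH3T3 cells, the libraries in which they were called, they held 533 Bapx1 tags and a ratio to V5 of 7.38 (5.96 to 9.23). Over the 23025 NIH3T3 peaks of the genome that overlap no embryo peak the embryo ratio was 1.08 (1.07 to 1.09), which lies inside the interval of the windows.

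Per peak, between 1 and 12 Bapx1 tags and between 0 and 11 wildtype tags were found in the embryo, and scaled Bapx1 tags exceeded wildtype tags at 18 of the 38 peaks (47.4%), against 54.8% of the NIH3T3 peaks without an embryo peak in the genome. By gene the summed ratio ran from 0.833 (0.409 to 1.70) for Arhgap20 to 1.23 (0.704 to 2.19) for Abca8a, and all 7 intervals included 1. The largest counts under a single peak of the embryo Bapx1 library were 12 tags against 11 wildtype tags, upstream of Adamts2, and 12 against 8, in Unc13b.

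Over whole windows the embryo ratio of Bapx1 to wildtype tags was 0.997 (0.981 to 1.01), from 0.960 (0.928 to 0.993) for Adamts2 to 1.03 (0.997 to 1.07) for Unc13b. Adamts2 was the only gene whose interval excluded 1, on the side of the wildtype library. In Cxcl13, 22.2% of the 500-bp bins held no tag in either embryo library, against 9.98% of the bins of the genome and between 0.826 and 5.83% for the other 6 genes. Whether tags could be mapped to those bins was not tested. Mean tags per bin were 3.63 for Cxcl13 and between 5.06 and 6.09 for the other genes in the Bapx1 library.

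**Figure D4:**
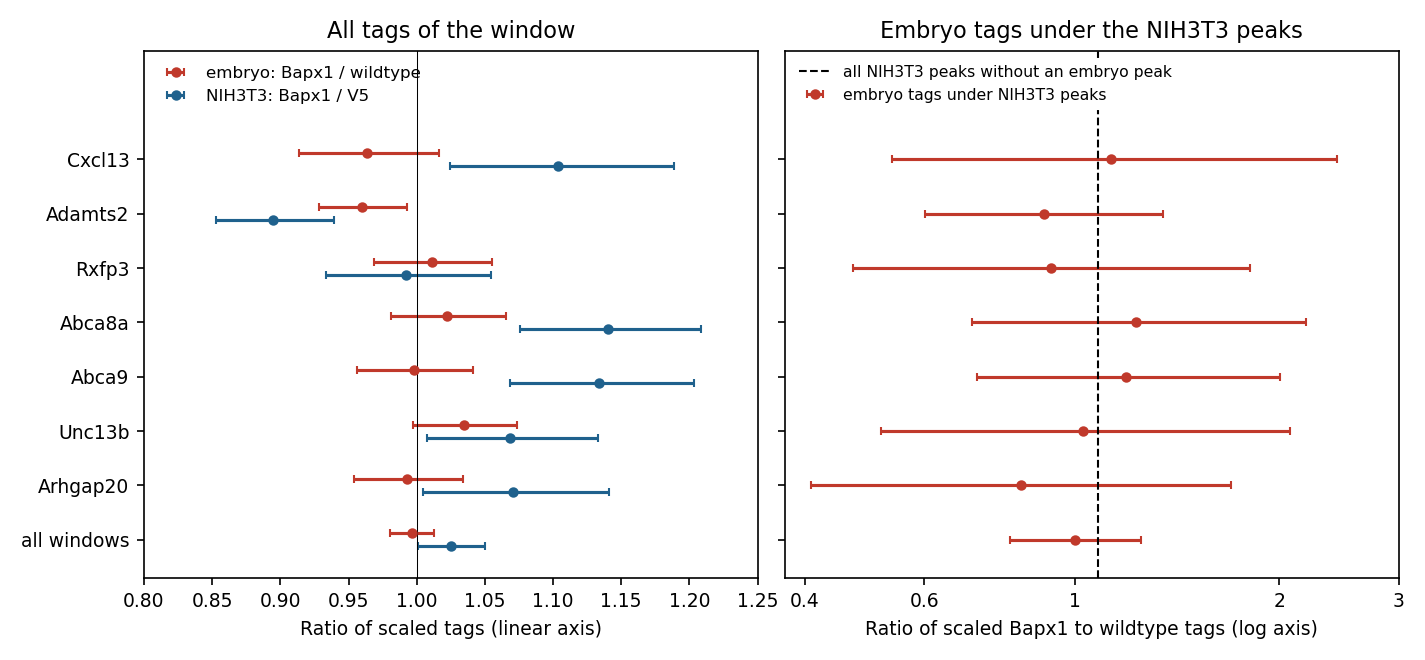
Ratios of scaled tags with exact binomial 95% intervals for each gene. On the left, over all tags of the window, embryo ratios lie between 0.960 and 1.03 and NIH3T3 ratios between 0.895 and 1.14, and on the right, embryo tags under the NIH3T3 peaks of each window (log axis) run from 0.833 to 1.23, with the dashed line at 1.08 for all NIH3T3 peaks of the genome that overlap no embryo peak.

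The motif was present within 50 bp of 23 of the 38 NIH3T3 summits, a share of 60.5% with an exact binomial 95% interval from 43.4 to 76.0%. The share was 64.6% for the NIH3T3 summits without an embryo peak in the genome. In stretches of equal length placed 500 bp away on both sides it was present in 9.21% for the 38 summits and in 10.7% for the genome. In the merged Abca window 9 of the 9 summits held it (66.4 to 100%), whereas in the other windows 14 of 29 did (48.3%, 29.4 to 67.5%). This split by window was made after the values were seen and was not tested. More than 1 copy was found at 7 summits, with 3 copies at the Abca8a summit and at a summit in an intron of Adamts12, 100 kb upstream of Rxfp3.

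**Figure D5:**
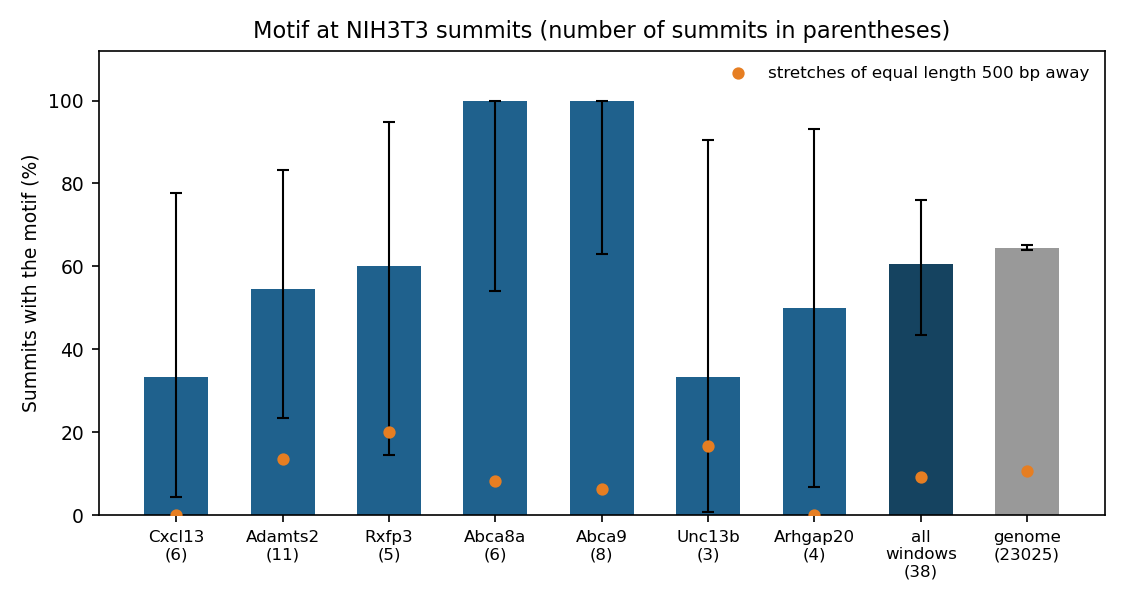
Share of NIH3T3 summits with the motif within 50 bp, with exact binomial 95% intervals, for each gene, for all windows and for the NIH3T3 peaks of the genome that overlap no embryo peak. Bars start at 0, dots give the share in stretches of equal length placed 500 bp away on both sides, and Abca8a and Abca9 stand at 100% with 5 summits in common.

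Over the whole windows the motif occurred 1.22 times per kb, as it did in the genome at 1.22 per kb. It ran from 1.18 per kb in Unc13b to 1.33 per kb in Abca8a. The GC content was 43.1% in the windows, from 40.04% in Cxcl13 to 46.7% in Adamts2, and 41.8% in the genome. With and without the motif, the embryo ratio under the NIH3T3 peaks of the windows was 0.995 (0.719 to 1.38) and 1.01 (0.736 to 1.38).

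Relatives of the 7 genes were examined for the same distances, in lists that include the gene itself, which has no embryo summit within 100 kb by the choice of the genes. Over all protein-coding genes 23.0% had an embryo summit within 100 kb, and the lists are too short to be read against that share. In the ABC transporter cluster, 0 of 5 genes had an embryo summit within 100 kb and 5 of 5 an NIH3T3 summit, with the nearest at 0.301 kb from Abca6. Of the procollagen N-proteinases Adamts14 alone had an embryo summit within 100 kb, at 42.1 kb, and Adamts3 had none nearer than 839 kb. Of 3 chosen members of the larger CXC chemokine family, Cxcl12, Cxcl13 and Cxcl14, an embryo summit lay 15.2 kb from Cxcl12 and 32.9 kb from Cxcl14, which is itself on the study's list. Among the relaxin family receptors none of 4 had an embryo summit within 100 kb, and among the Unc13 family 1 of 4 did, Unc13c at 37.2 kb. An NIH3T3 summit within 100 kb was found for 3 of 3 N-proteinases, 2 of the 3 chosen chemokines, 3 of 4 relaxin family receptors and 4 of 4 Unc13 genes, beside the share of 79.1% for all protein-coding genes.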

How the data were processed

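The authors mapped single-end reads to mm9, kept uniquely mapped tags with few mismatches and deposited their positions (35 bp each). Peaks were called by the authors with MACS against the control library at a p cutoff of 1e-05. Per the file headers, the deposited peak lists give a count of tags, a score of 10 times −log10 (p), a fold enrichment and an FDR in percent from exchanged libraries. No peaks were called again here.

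Tags were counted at their middle with 1 tag per position and strand, which removed 2.36% of NIH3T3 Bapx1 and 6.53% of V5 tags and no embryo tag, and were scaled to the tags on 21 chromosomes. Transcript starts came from the GENCODE annotation of NCBIM37 (mm9), with all transcripts used. Ratios and shares carry exact binomial (Clopper-Pearson) and counts exact Poisson limits at 95%. These cover counting error only, since there was 1 library per condition. The libraries had 14 rounds of PCR per the labels, and copies at the same position and strand were counted as 1 tag. A count of 0 was taken to allow 3 counts. Computations used Python 3.11.15, numpy 2.4.6, scipy 1.17.1 and pandas 2.3.3, and bin calling, motif search and intervals were tested on simulated data. With 1 library per condition, conditions could not be tested against a spread. Binomial p values per bin were used only to rank the bins of a window and as other calling rules. They compare these libraries, not the conditions. All 7 genes are named, each with its nearest and strongest sites and its most extreme bin. The genes and lists were chosen with earlier results of these data known. The Sox9 and IgG libraries were not used here.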

Additional observations from a re-analysis of the deposited data

How the results depend on the processing

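With windows of 100 kb beside the genes the embryo summits numbered 0, with 500 kb 6, and at a p of at most 1e-10 1. The count at 100 kb was largely fixed by the choice of the genes. Genes with an NIH3T3 summit numbered 4 at a limit of 50 kb and 4 at a p of at most 1e-10. The NIH3T3 peaks in the windows numbered 7 at that p and 20 with 100 kb beside the genes. Over the genome the density of NIH3T3 peaks was 1.89 per Mb at that p and 8.74 per Mb for all peaks. Bins with an excess of Bapx1 and of wildtype, in this order, numbered 23 and 38 at a fold of at least 2, 2 and 2 at a one-sided exact binomial p of at most 0.001, 1 and 0 at a Benjamini-Hochberg adjusted p of at most 0.05 over all bins (the bin of the embryo peak near Rxfp3, already on the deposited list), and 2 and 0 in bins of 1000 bp with at least 24 scaled tags. The windows hold 6104 bins of 500 bp. Over all bins of the genome the shares, in the same order, were 0.279 and 0.406% at a fold of at least 2. They were 0.036 and 0.0399% at the binomial p, and 0.00388 and 0.0039% at the adjusted p. These p thresholds compare single libraries, on tags that chose the genes. The fold rules set a lower minimum of sequenced tags for wildtype than for Bapx1. The order of Bapx1 and wildtype excess thus depended on the rule, and the cause was not tested. With the longer motif TGAGTGG or TAAGTGG, 28.9% of the summits held it (24.6% of all NIH3T3 summits) and the density was 0.276 per kb (0.297 in the genome). Of 32 alternatives, without the one added later, 15 left the count within 1.5 times or the value within its interval. Among these are the limit of 200 kb, which could not change the count of 7 genes with an NIH3T3 summit, and those of the embryo ratio under NIH3T3 peaks (0.969 to 1.004). As an alternative chosen after seeing the data, which can change only windows with an embryo peak, the ratio over all windows outside embryo peaks was 0.993. Alternatives without repeats were not run, since the reference used carries no repeat marks. No paired analysis was possible because each condition has 1 library. The depth limits ratios at single peaks, where 1 to 12 embryo tags were counted.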
